A study of Drosophila melanogaster with 2 samples.

Results

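The genes described here are the cytoplasmic ribosomal protein genes of Drosophila melanogaster, taken as every protein-coding gene whose annotated symbol is Rp followed by L, S or LP and a digit. The rule found 92 of 13945 protein-coding genes on the arms 2L, 2R, 3L, 3R, 4 and X, of which 54 code for proteins of the large subunit and 38 for proteins of the small subunit. It also took in genes named as -like relatives. It left out sta and Rack1, which code for small subunit components under other names. ChIP-seq, which sequences the DNA recovered with an immunoprecipitated protein, was made from whole adult male flies of the Clk-GFP strain, a transgenic line that stably expresses the transcription factor Clock (Clk) with green fluorescent protein at its C-terminus. There were 2 biological replicates of this 1 group, with no second genotype, treatment or time, and the age of the flies is given as unknown. The chromatin was sheared by sonication and precipitated with an antibody to the tag according to the sample descriptions, while the antibody field names Clk. The time of day of collection and the promoter of the transgene were not given, and control libraries were not analysed here. Whole flies mix many tissues, so a region seen in a few cell types and a weak region seen in all cannot be told apart.

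Ribosomal proteins join ribosomal RNA in a large and a small subunit, and cells need nearly equal amounts of each protein. Their genes are among the most highly transcribed in the fly, and loss of 1 copy of many of them gives the Minute phenotype of slow growth and short bristles. Their start sites often carry a pyrimidine-rich initiator, called TCT, in place of the usual initiator, and many of their promoters carry the element bound by the replication-related factor DREF or the core promoter element called motif 1. Clk binds DNA with its partner Cycle, classically at the E-box CACGTG, and drives the feedback loop of the circadian clock.

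Clk-GFP regions lay at the start sites of most ribosomal protein genes. A summit of the authors' reproducible list lay no more than 1 kb from a start site at 54 of the 92 genes (58.7%), on a list that held 2464 regions on build dm6, against 2194 of 13853 other protein-coding genes (15.8%). Over all 13945 protein-coding genes the share was 16.1%. Among large subunit genes 33 of 54 (61.1%) had such a summit and among small subunit genes 21 of 38 (55.3%), so both subunits were represented at close shares. In all, 60 distinct summits lay at these genes, 2.44% of the list, and none was counted for more than 1 of them. The reproducible list proved to be exactly the strongest 2464 of 30000 pooled candidate regions, so being listed does not by itself show support from both replicates. Strength was therefore also read in each replicate, as the authors' signal value and as the rank by that value among 30000 candidates, where 1 is the strongest. No test was made of the gene list, because its members were chosen with results of these data known.

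**Figure D1:**
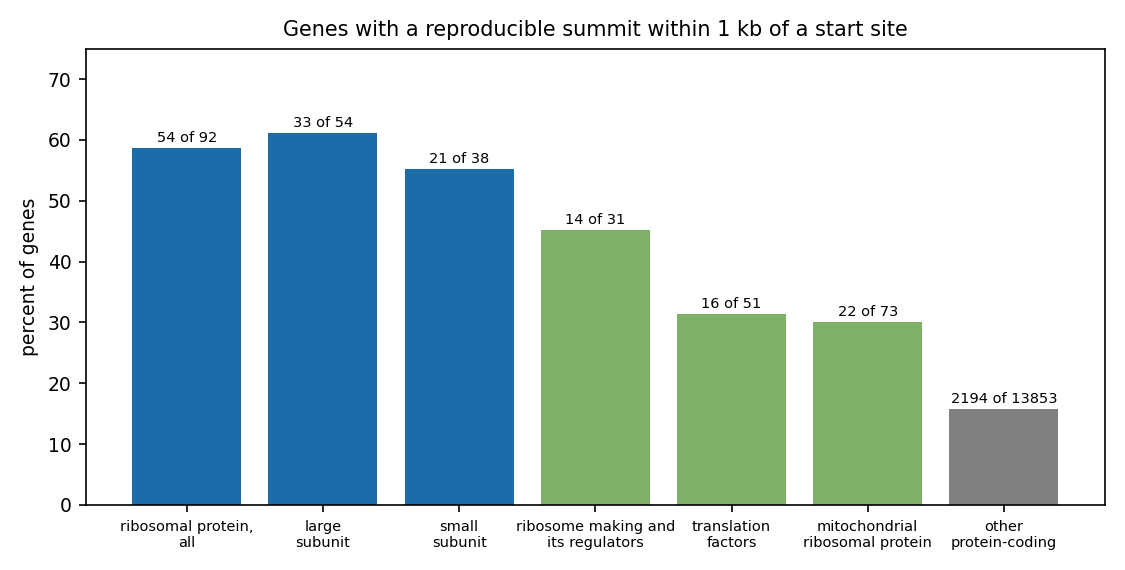
Percent of genes with a reproducible summit no more than 1 kb from a start, with the count above each bar, for ribosomal protein genes, 3 lists of related genes and other protein-coding genes. Ribosomal protein genes stood at 58.7%, the large and small subunit genes at 61.1% and 55.3%, and other protein-coding genes at 15.8%.

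Genes with several annotated start sites have more places where a summit can be counted. Among ribosomal protein genes with 1 start site, 23 of 48 (47.9%) had a reproducible summit, against 11.9% of all protein-coding genes with 1 start site. Among those with 2 or more, 31 of 44 (70.5%) had one, against 27.8% of all such genes. Large subunit genes with 1 start site had a summit at 16 of 29 and small subunit genes at 7 of 19. With 2 or more start sites the counts were 17 of 25 for the large and 14 of 19 for the small subunit.

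Candidate regions of any strength were found at nearly all of these genes. A pooled candidate lay within 1 kb of 84 of the 92 genes (91.3%), against 60.4% of all protein-coding genes. Replicate 1 had a candidate at 86 genes, against 60% of all protein-coding genes, and replicate 2 at 87 genes, against 59.3%. Candidates of both replicates lay within 150 bp of each other at 78 genes (84.8%), 44 of 54 large subunit and 34 of 38 small subunit genes, against 37.5% of all protein-coding genes. At 4 genes no list held a candidate. These were RpL10Aa, RpL22-like, RpL24-like and RpS28-like.

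The 100 bases around the start site, with 80 before it and 20 from it on, are shown for the 4 genes with the strongest summits. RpL24 and RpS25 are shown for an E-box and a DREF element near the summit. Also shown are RpL34a, a relative of RpL34b, the related pair RpS5a and RpS5b, and RpL10Aa, which had no candidate. All are in the direction of transcription, from the RefSeq Release 6 genome (dm6), and the start is the most upstream annotated one. Capitals mark matches to CACGTG, TATCGATA or CTTT, the last searched on the gene's strand with its C within 10 bp of the start site.
RpS27: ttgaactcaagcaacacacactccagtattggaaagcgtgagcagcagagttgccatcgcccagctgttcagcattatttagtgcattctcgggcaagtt
RpL14: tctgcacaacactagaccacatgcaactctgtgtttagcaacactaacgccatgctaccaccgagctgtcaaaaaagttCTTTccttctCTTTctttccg
RpL23A: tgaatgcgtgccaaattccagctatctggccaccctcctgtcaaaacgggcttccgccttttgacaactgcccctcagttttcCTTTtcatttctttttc
RpL34b: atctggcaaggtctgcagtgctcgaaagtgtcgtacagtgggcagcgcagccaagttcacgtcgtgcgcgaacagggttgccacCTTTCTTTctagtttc
RpL34a: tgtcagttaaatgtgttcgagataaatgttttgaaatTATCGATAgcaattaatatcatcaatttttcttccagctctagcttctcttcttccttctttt
RpL24: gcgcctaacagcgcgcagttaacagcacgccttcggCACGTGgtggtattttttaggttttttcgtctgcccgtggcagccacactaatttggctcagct
RpS25: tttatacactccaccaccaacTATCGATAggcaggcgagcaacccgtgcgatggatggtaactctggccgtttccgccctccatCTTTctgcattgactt
RpS5a: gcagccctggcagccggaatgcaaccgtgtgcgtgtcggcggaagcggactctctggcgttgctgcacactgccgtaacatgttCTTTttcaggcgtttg
RpS5b: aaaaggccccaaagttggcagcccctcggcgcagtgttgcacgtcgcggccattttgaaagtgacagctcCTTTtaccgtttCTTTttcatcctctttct
RpL10Aa: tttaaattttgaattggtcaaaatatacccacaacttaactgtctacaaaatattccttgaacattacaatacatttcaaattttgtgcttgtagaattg
They lie at chr3R:25247495-25247594 (minus strand) for RpS27, chr3L:8600926-8601025 (plus strand) for RpL14, chr3L:1668635-1668734 (minus strand) for RpL23A, chr3R:9401207-9401306 (minus strand) for RpL34b and chr3R:26059248-26059347 (minus strand) for RpL34a. The others lie at chr2L:13395112-13395211 (minus strand) for RpL24, chr3R:11216268-11216367 (minus strand) for RpS25, chrX:17148245-17148344 (minus strand) for RpS5a, chr3R:14901544-14901643 (minus strand) for RpS5b and chr3R:15037286-15037385 (plus strand) for RpL10Aa. RpL14, RpL23A, RpL34b, RpS25, RpS5a and RpS5b carried CTTT at the start. Within the bases shown, RpL24 carried the E-box, and RpL34a and RpS25 the DREF element. RpS27, with the strongest summit of all 92 genes, and RpL10Aa, with no candidate in any list, carried none of the 3.

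None of these genes had a summit within the first 100 ranks of the list, where 105 other protein-coding genes had their strongest one. RpS27, which codes for a zinc-binding protein of the small subunit, had the strongest (signal 342, rank 123), at −14 bp from its start site, where minus means upstream along the gene. Its region had a signal of 209.9 at rank 139 in replicate 1 and of 127.5 at rank 126 in replicate 2. RpL14 followed with a pooled signal of 331 at −44 bp, and with 219 at rank 121 in replicate 1 and 111 at rank 165 in replicate 2. RpL23A, which sits at the exit of the nascent peptide tunnel, had a pooled signal of 326 at −107 bp, with 206 at rank 142 in replicate 1 and 111 at rank 168 in replicate 2. RpL34b had a pooled signal of 325 at −84 bp, with 205 at rank 143 in replicate 1 and 116 at rank 147 in replicate 2. In both replicates these 4 regions were within the first 168 ranks. Signal values of the 2 replicates are on the scale of each library, and those of replicate 1 were generally the higher ones.

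Of the 12 strongest genes 9 were of the large and 3 of the small subunit. RpL7 had its summit at +39 bp in the 5′ UTR (rank 159), with a signal of 190 in replicate 1 and 105 in replicate 2. RpL32, widely used as a reference gene in RNA measurements, had a pooled signal of 257 at rank 224, with 164 in replicate 1 and 93.6 in replicate 2. RpL28 (rank 232) had 172 in replicate 1 and 81.3 in replicate 2. RpS20, a protein of the head of the small subunit, ranked 268, and its signal was 138 in replicate 1 and 105 in replicate 2. RpS25 ranked 285 with 153 and 80.02 in replicates 1 and 2. RpL30 ranked 296 with 139 and 93.6, and RpL41, which codes for a very short protein, ranked 367 with 150 and 65.5. None of the genes named here ranked below 490 in either replicate.

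**Figure D2:**
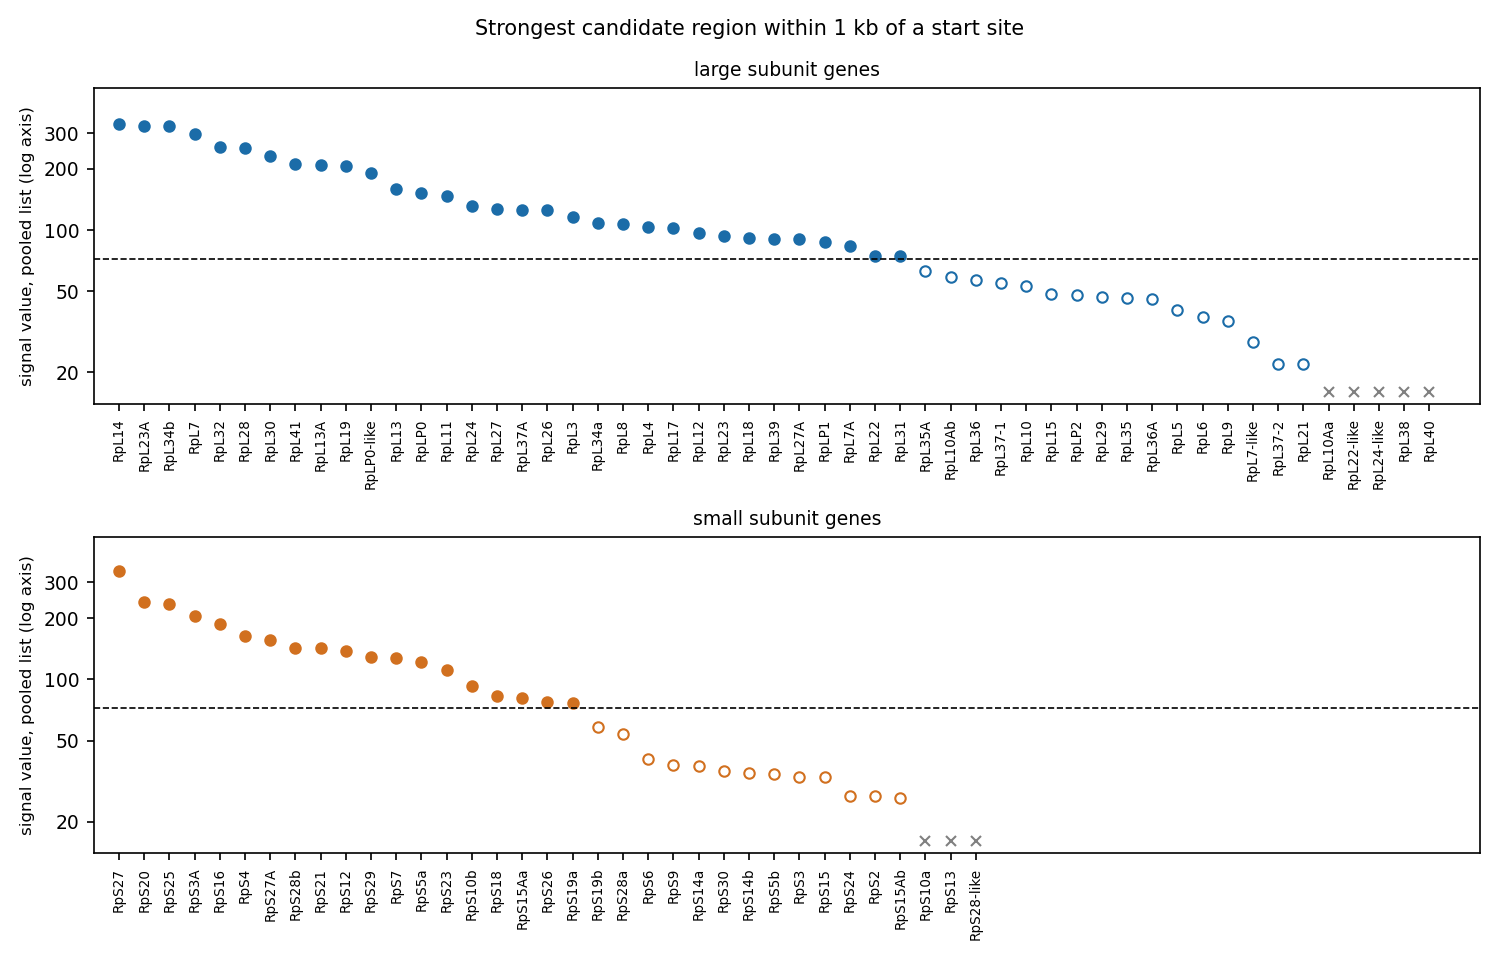
Signal value of the strongest pooled candidate region within 1 kb of each gene that is named here (log axis), for large subunit genes above and small subunit genes below, in order of signal. Filled circles are in the reproducible list, open circles are weaker pooled candidates, crosses at the base are genes with no pooled candidate, and the dashed line is the lowest signal of the reproducible list (72.4). RpS27 stood at 342 and RpL31, at the lower edge of the list, at 74.2.

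Across the 54 genes with a reproducible summit, the strongest summit of each had a median rank of 938, against 1035 over 2194 other protein-coding genes. The median signal was 128, against 121. Large subunit genes had a median rank of 942 and small subunit genes of 936, with median signals of 127.6 and 128.5, so strength did not separate the subunits. The stronger 1232 regions of the list held the summits of 34 of the 54 genes (63%), against 57.6% of the other genes with a summit. Large subunit genes had 20 of 33 there and small subunit genes 14 of 21.

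Proteins with a known place or role in the ribosome, named after their values were seen, included listed and unlisted genes. Of the stalk proteins, which recruit elongation factors, RpLP0 had a pooled signal of 152 at rank 675, RpLP1 of 87.5 at rank 1806, and RpLP2 only a candidate of 48.0 at rank 4826. Of the pair that binds 5S ribosomal RNA, RpL11 ranked 711 with 147, and RpL5 ranked 6416 with 40.4, outside the reproducible list. RpL3, beside the peptidyl transferase centre, ranked 1127. RpL4 and RpL39, which line the nascent peptide tunnel, ranked 1339 and 1700. Both genes that code for ubiquitin joined to a ribosomal protein also differed. RpS27A ranked 632 at −76 bp with 102 in replicate 1 and 51.1 in replicate 2, while RpL40 had no pooled candidate. RpS6, the target of S6 kinase, was outside the list at rank 6327, and its candidate lay at −520 bp, nearer to the start of bys. RpS3, at the mRNA entry of the small subunit, was outside it at rank 9085. RpS21, at which mutations cause overgrowth of blood-forming organs, was listed at rank 750, and RpS12, which acts in cell competition in the fly, at rank 810. Of the other listed large subunit genes, RpL13A ranked 379, RpL19 392, RpL13 600, RpL27 942, RpL37A 968 and RpL26 975, and RpL8, RpL17, RpL12, RpL23, RpL18, RpL27A and RpL7A lay between rank 1257 and rank 1971. Of the other listed small subunit genes, RpS16 ranked 457, RpS4 582, RpS29 936, RpS7 940, RpS23 1185 and RpS18 1984.

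Among the weakest listed genes were RpS26 (signal 77.2, rank 2211), RpS19a (76.9, rank 2232), RpL22 (75.04, rank 2321) and RpL31 (74.2, rank 2368). The 6 nearest below the edge of the list were RpL35A (63.3, rank 3026), RpL10Ab (59.0, rank 3404), RpS19b (58.3, rank 3483), RpL36 (56.6, rank 3660), RpL37-1 (54.8, rank 3875) and RpS28a (53.8, rank 3974). In all, 30 genes had a pooled candidate but no listed summit, 16 of the large and 14 of the small subunit. Their ranks ran between 3026 and 19977 with a median of 6760.5, and 9 of them lay within rank 4928, which is 2 times the length of the list. Besides these 6 and RpL5, RpLP2, RpS3 and RpS6, the genes with only such a candidate included RpL6, RpL7-like, RpL9, RpL10, RpL15, RpL21, RpL29, RpL35, RpL36A, RpL37-2, RpS2, RpS5b, RpS9, RpS14a, RpS14b, RpS15, RpS15Ab, RpS24 and RpS30.

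The 8 genes with no pooled candidate were RpL10Aa, RpL22-like, RpL24-like, RpL38, RpL40, RpS10a, RpS13 and RpS28-like. Besides the 4 at which no list held a candidate, the other 4 had weak ones in single replicates. RpL38, known in mouse for its role in translation of Hox transcripts, had a candidate at rank 29351 in replicate 2. RpL40 had candidates at rank 11895 in replicate 1 (+117 bp) and rank 10946 in replicate 2 (−428 bp), at different sites. RpS10a had one at rank 12628 in replicate 1. RpS13 had one at rank 24557 in replicate 1 (+556 bp) and one at rank 10253 in replicate 2 (−51 bp). Each list ends at 30000 regions, so weaker signal at these genes was not detectable.

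Summits at ribosomal protein genes lay closer to the start site than those at other genes. For each gene's strongest summit, the distance to its nearest own start site had a median of −43.5 bp (−58 bp for the large, −20 bp for the small subunit), against −131 bp at other protein-coding genes. Without replicate 1 the median at ribosomal protein genes was −66 bp. Within 100 bp of the start site lay 45 of 54 summits (83.3%), against 30.3% of the 2194 other genes, and within 200 bp 52 of 54 (96.3%), against 59.4%. Between 150 bp upstream and 50 bp downstream lay 51 of the 54 (94.4%), against 42.7%. Of the 54 summits 40 were upstream of the transcripts and 14 in a 5′ UTR. By the distance to the nearest own start site, 45 of 54 (83.3%) lay upstream, against 83.6% of the other genes, a like share. Summits outside the range of 150 bp upstream to 50 bp downstream included those of RpS28b (−776 bp) and RpL32 (−162 bp). For both of these a start site of another gene was nearer.

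**Figure D3:**
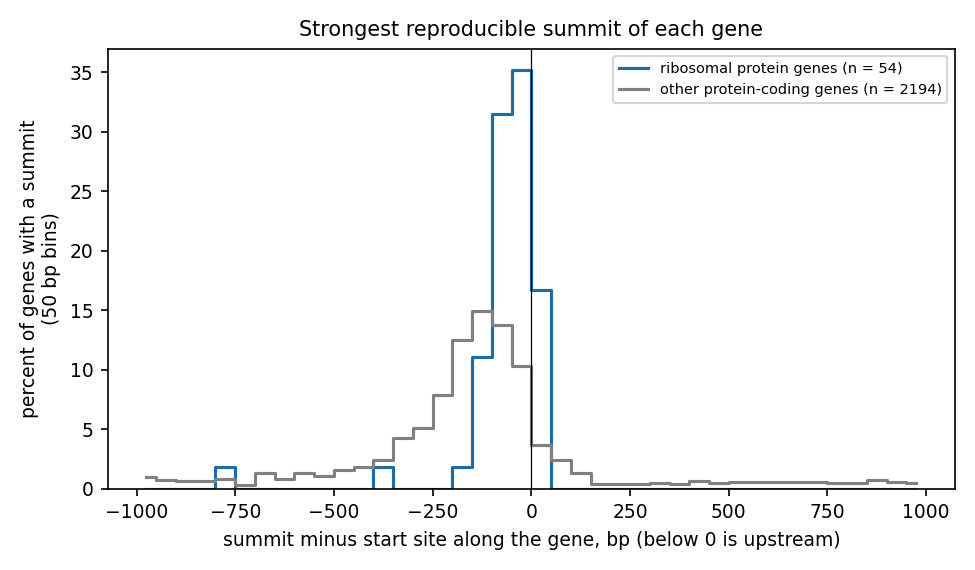
Distance of each gene's strongest reproducible summit to its nearest own start site in bins of 50 bp (below 0 is upstream), as percent of 54 ribosomal protein genes and of 2194 other protein-coding genes. The ribosomal protein genes had 35.2% in the bin just upstream of the start, against 10.3% of other genes, and 16.7% in the bin just downstream, against 3.69%.

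A summit can lie near a start site because of a neighbour. Another protein-coding gene had a start site within 1 kb of the summit at 38 of 54 ribosomal protein genes (70.4%), against 65.1% of other genes with a summit. The nearest start site to the summit was the gene's own at 47 of the 54 (87%), against 65.5% of 2194 other genes. At 7 genes the nearest start site was that of another gene. They included RpL32 (CG7943), RpL19 (CG3776), RpLP0-like (14-3-3zeta), RpL13 (Dref), RpS28b (l(1)G0320) and RpL3 (CG6693). RpL13 and Dref, the gene of the DREF factor, thus had the same region (rank 600), whose summit lay at −97 bp from RpL13 and +13 bp from Dref. For the 47 ribosomal protein genes whose own start site was nearest, the median distance without sign was 39 bp and 89.4% lay within 100 bp, against 121 bp and 41.7% for 1438 other genes of this kind. No other protein-coding start lay within 1 kb of the summit at 16 genes, among them RpL23A, RpL30, RpS3A, RpS4, RpL11 and RpL24.

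More than 1 reproducible summit was found at 5 of the 54 genes. How often other genes had more than 1 is not given, so these 5 cannot be called many or few. RpL34b had 3, the strongest at −84 bp, another at −287 bp (signal 92.2, rank 1656) that lay nearest to CG8132, and the last at +889 bp (75.05, rank 2320), downstream of the gene and nearest to CG34117. RpL28 had its second at −289 bp (118, rank 1089), nearest to eIF1. RpS28b had its stronger summit at −776 bp (143, rank 747) and a weaker one of its own at −67 bp (73.8, rank 2390). RpL26 had summits at −23 bp (125, rank 975) and at −42 bp of a later start site (119, rank 1073), in 2 regions that overlap. RpL27A had them at −57 bp (89.998, rank 1728) and −271 bp (87.5, rank 1807). The summits just inside the 1 kb limit were those of RpS28b at −776 bp and RpL34b at +889 bp. Just outside it lay a region at −1228 bp from RpLP0-like (rank 1896) and another at −1313 bp from RpL13A (rank 373), both genes that also had a nearer one.

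The replicates ranked these genes in a similar order. Across the 54 genes with a reproducible summit, the log2 signal of the candidate at the pooled summit correlated between replicates at Pearson r = 0.731 and Spearman rho = 0.8003. Both measures come from libraries of the same line, and genes are not independent replicates, so no p is given. The signal of replicate 1 was a median of 1.82 times that of replicate 2 (0.750 to 7.40), against 1.74 times over 2338 other reproducible summits. The summits of both replicates lay a median of 21.5 bp apart, and 45 of 54 pairs lay within 50 bp. Each was sought only within 150 bp of the pooled summit, which limits this distance in advance. Among the strongest 2464 candidates were 49 of the 54 genes in replicate 1, 46 in replicate 2 and 42 in both. The 54 were listed by the pooled signal of these same replicates, so high counts follow in part from that choice. The share of other listed genes is not given.

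A few genes stood much higher in 1 replicate. RpL36A ranked 26778 in replicate 1 and 2093 in replicate 2, with signals of 13.002 and 31.97, although replicate 1 had a stronger candidate at −592 bp (rank 4807, signal 31.8). RpS9 (ranks 22030 and 5095 in replicates 1 and 2), RpL10Ab (7706 and 1799) and RpS14a (19636 and 4741) also stood higher in replicate 2, and replicate 1 had stronger candidates elsewhere at RpL10Ab (rank 5146 at −82 bp) and RpS9 (rank 16993 at +837 bp). None of these 4 was in the reproducible list. In the other direction, RpLP1 ranked 1506 in replicate 1 (signal 62.8) and 28653 in replicate 2 (8.49) at its listed summit, although replicate 2 had a stronger candidate at −268 bp (rank 1888). RpS19b ranked 2453 and 22731 in replicates 1 and 2, where replicate 2 had a stronger candidate at +386 bp (rank 4854). The ranks of RpL29 were 3287 and 28649, and those of RpS19a 1735 and 15116, in replicates 1 and 2. The listed regions of RpLP1 and RpS19a thus rested mainly on replicate 1.

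**Figure D4:**
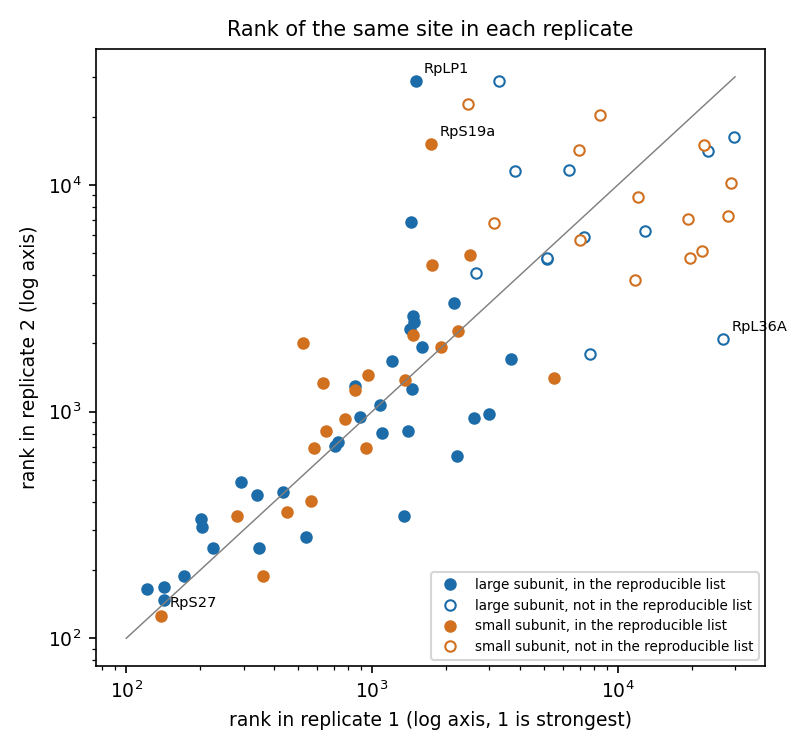
Rank of the candidate region at each gene's pooled summit in replicate 1 and in replicate 2 (both log axes, 1 is the strongest), for the 79 genes with a candidate in both. Filled points are in the reproducible list and the line marks equal ranks. RpLP1 and RpS19a stood high in replicate 1 only, and RpL36A in replicate 2 only.

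Many ribosomal proteins of the fly have paralogues, and 13 groups with 27 genes were compared. At 2 groups all members had a reproducible summit, at 8 groups some did and at 3 groups none. RpL34b (signal 325) and RpL34a (109, rank 1238) both had one, with 205 and 71.6 in replicate 1 and 116 and 35.9 in replicate 2. RpLP0 (152) had one, as did RpLP0-like (190, rank 446), whose product is related to a ribosome assembly factor and whose summit lay nearest to 14-3-3zeta. Genes in the groups had a summit at 12 of 27 (44.4%) and genes outside them at 42 of 65 (64.6%), against 16.1% of all protein-coding genes. Outside the groups the large subunit had 26 of 40 (65%) and the small subunit 16 of 25 (64%).

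In each of the 8 divided groups a single gene was in the list. RpS5a had a summit at −75 bp (signal 122, rank 1030), with 81.5 in replicate 1 and 38.9 in replicate 2. RpS5b, which acts mainly in the female germline, had a candidate at −617 bp (34.4, rank 8533), with 15.4 in replicate 1 and 17.0 in replicate 2. RpL22 was listed (75.04), and RpL22-like, known from the male germline, had no candidate in any list. RpL24 was listed (132, rank 880), with 87.3 in replicate 1 and 41.3 in replicate 2, and RpL24-like, related to an assembly factor of the large subunit, had no candidate. RpL7 (298) was listed and RpL7-like (28.2, rank 12336) was not. RpS10b (93.1, rank 1628) was listed and RpS10a had no pooled candidate. RpS15Aa (80.8, rank 2053) was listed and RpS15Ab (26.2, rank 14232) was not. RpS28b was listed, RpS28a (53.8) was not, and RpS28-like had no candidate. The stronger RpS28b summit (143) lay at −776 bp, nearest to l(1)G0320, and its own at −67 bp (73.8, rank 2390) was near the edge of the list. RpS19a (76.9) and RpS19b (58.3) lay on either side of the edge, and the RpS19b candidate lay at −950 bp, nearer to CG5854.

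In the 3 groups with no listed member, RpL10Ab had a candidate at −326 bp (59.0), nearer to 2 other genes, and RpL10Aa had none. RpL37-1 had a candidate at −87 bp (54.8), with 30.5 in replicate 1 and 20.6 in replicate 2, and RpL37-2 one at +932 bp (22.1, rank 19950). RpS14a and RpS14b lie next to each other on the X chromosome. RpS14a had a candidate at −53 bp (37.6, rank 7279) and RpS14b one at +735 bp (34.5, rank 8445), nearest to the start of Ubr3. Paralogues with near-identical sequence can share reads, and how such reads were treated is not given in the sources used here. Within 200 bp of the start, 90 of the 92 genes held no 36-base stretch found elsewhere in the genome, and RpL17 and RpL7A held such stretches at 3.01% of positions each.

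**Figure D5:**
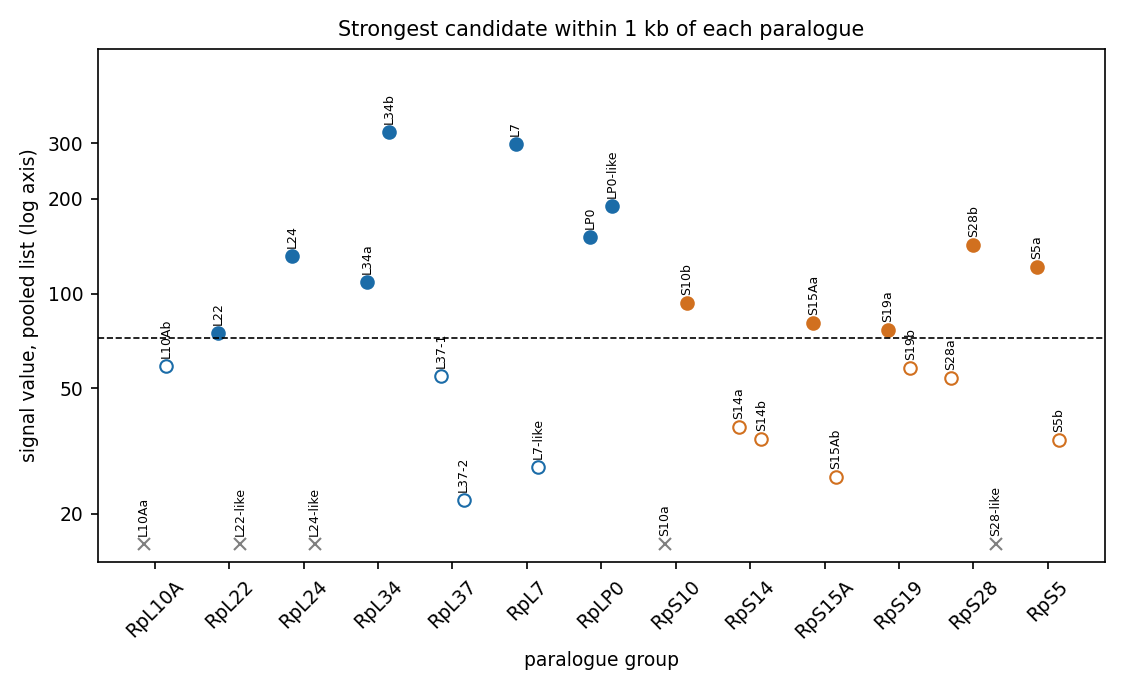
Signal value of the strongest pooled candidate within 1 kb (log axis) for the 27 genes of 13 paralogue groups. Filled circles are in the reproducible list, open circles are weaker, crosses have no pooled candidate, and the dashed line is the lowest signal of the list (72.4). Both genes of RpL34 and of RpLP0 lie above the line and all genes of RpL10A, RpL37 and RpS14 lie below it or have no candidate.

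Summits at ribosomal protein genes were found on every arm that carries such genes. The counts were 10 of 19 on 2L, 12 of 21 on 2R, 10 of 14 on 3L, 13 of 23 on 3R and 8 of 14 on X. RpS3A, the only such gene on chromosome 4, had one at rank 397. Over all protein-coding genes the shares were 16.6% on 2L, 15.5% on 2R, 17.6% on 3L, 19% on 3R, 5% on chromosome 4 and 10.5% on X. The 8 listed genes on X had a median rank of 1799.5 and signals between 75.04 and 143, while the highest signals on 2L, 3L and 3R were 298, 331 and 342. The median ranks on 2L, 2R, 3L and 3R lay between 742.5 and 948. Other genes on X with a summit had a median rank of 1170, against 965 to 1061 on the same 4 arms. Males carry a single X chromosome, and its part in these values was not tested.

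Known promoter elements were searched in the window 250 bases before to 50 bases after the most upstream start site, on both strands, except that CTTT was read on the gene's strand as above. No matches of 2 elements overlapped. CTTT at the start was found at 48 of 92 ribosomal protein genes (52.2%), against 10.7% of all protein-coding genes. It was as frequent with a reproducible summit (28 of 54, 51.9%) as without one (20 of 38, 52.6%). The DREF element TATCGATA was found at 28 genes (30.4%), against 9.37% of all genes, at 15 of 54 with a summit and 13 of 38 without. GGTCACAC, the core of motif 1, was found at 14 genes (15.2%), against 7.71%, at 10 of 54 with a summit and 4 of 38 without. GAGAGA, the motif of GAGA factor, was found at 4 genes (4.35%), against 12.3%. These matches are descriptions of sequence and not evidence of binding.

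The E-box CACGTG was found at 9 of 92 genes (9.78%), against 4.24% of all protein-coding genes. With a summit these were RpL7, RpL11, RpL24, RpL34b, RpLP0-like and RpS28b, 6 of 54 (11.1%), and without one RpL24-like, RpL29 and RpL6, 3 of 38 (7.89%). The motif centre lay within 50 bp of the summit at RpL7, RpL11 and RpL24. In RpL24 it began at −44 bp, with the summit at −35 bp. Within 100 bp of the summit 4 of 54 genes (7.41%) held CACGTG, against 2.58% of all 2248 genes with a summit. The DREF element was found there at 14 of 54 (25.9%), against 8.27%, and motif 1 at 8 of 54 (14.8%), against 3.83%. Of the 15 listed genes with a DREF element, RpS25 had it close to the summit, beginning at −59 bp with the summit at −51 bp. It lay far from the summit at RpS16, where it began at base 22605671 of 2R and the summit was at base 22606058. At 21 genes none of the E-box, the DREF element, motif 1 or CTTT at the start was found, and 10 of these had a reproducible summit, among them RpS27 and RpS20.

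The sequence under the summits was richer in G and C than at other genes. The 50 bases to each side of the strongest summit had a mean GC content of 45.7% at ribosomal protein genes (44.2% for the large, 47.9% for the small subunit), against 36.8% at other protein-coding genes. In the same width around the most upstream start site, ribosomal protein genes with a summit had 47.5% and those without one 42.7%, against 44.6% at other genes with a summit and 43.1% over all genes. The part of GC content in the presence of a summit was not tested.

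Genes that act beside the ribosomal proteins were also seen. Against 16.1% of all protein-coding genes, mitochondrial ribosomal protein genes had a reproducible summit at 22 of 73 (30.1%) and translation factor genes at 16 of 51 (31.4%). Some of these summits were also counted for cytoplasmic ribosomal protein genes. That of eIF1 was the strongest of RpL28 (rank 232), and that of mRpL27, at +967 bp, was the weaker one of RpL27A (rank 1807). A mixed list of genes for ribosome making and for its regulators had one at 14 of 31 (45.2%). Besides nucleolar genes such as Nopp140 this list holds promoter factors, with Trl, Dref, crol and M1BP among those with a summit, and growth signalling genes, with Lk6, Thor and mTor among them. The small subunit gene sta, outside the naming rule, had a summit at −15 bp (signal 74.8, rank 2335), and Rack1, a scaffold of the small subunit, one at −5 bp (201, rank 407).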

How the data were processed

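Candidate regions were called by the authors in each replicate and in both pooled, as peaks and background for the irreproducible discovery rate (IDR) step, followed by an IDR-thresholded list, as the deposited notes state per the file headers. The score used is the deposited signal value of the authors' peak caller, on a scale of each library, and summits come from the deposited summit offsets. Builds are dm6 and dm3, per the labels. Neither the aligner and caller nor the filters on reads and the cut-off of the IDR step could be learned from the sources used here. The dm3 lists, signal tracks and control data were not used here. Read depth is unknown, so counting error cannot be given.

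Genes were the protein-coding genes of Ensembl release 115 (BDGP6.54) and sequence was RefSeq Release 6. A gene had a region when a summit lay within 1 kb of any annotated start site, and its strongest region was used. Replicate summits within 150 bp counted as shared, and a replicate's value at a pooled summit is that of its strongest candidate within 150 bp. With 1 group no comparison of conditions was possible. Members were named, except a few that are not reported here, with values for the 12 strongest, the 6 weakest, the 6 next below the list, those with several summits, those with no pooled candidate, all paralogues and the genes that differed most in replicate rank. Members and lists were chosen with earlier results of these data known. Coordinates are 1-based. Assignment was checked on simulated summits placed close to or far from the most upstream start site of each gene. Neighbouring genes, several start sites and the 1 kb limit were not part of that check. Alternatives changed the distance, the list, the replicate, the assignment of genes, the window and the genes counted. Python 3.11.15, NumPy 2.4.6, SciPy 1.17.1 and matplotlib 3.10.9 were used.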

Additional observations from a re-analysis of the deposited data

How the results depend on the processing

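No paired analysis was possible because there is 1 group. The 54 ribosomal protein genes with a summit became 34 in the stronger part of the list, 84 with all pooled candidates, 86 with those of replicate 1 and 87 with those of replicate 2. The 33 large subunit genes became 20 in the stronger part and 49, 49 and 51 with all pooled, replicate 1 and replicate 2 candidates. The 21 small subunit genes became 14 in the stronger part and 35, 37 and 36 with all pooled, replicate 1 and replicate 2 candidates. The 8 divided paralogue groups became 5 in the stronger part, 5, 4 and 5 with all pooled, replicate 1 and replicate 2 candidates, and 5 without genes named -like. With a single replicate, the strongest 2464 regions gave 49 genes without replicate 1, of which 47 were shared with the 54, and 51 without replicate 2, of which 49 were shared. The median distance ranged between −66 and −43 bp and the median rank between 819 and 855 in these, and the rank was 519.5 in the stronger part. Genes with candidates of both replicates within 150 bp fell to 41 when each replicate's strongest regions alone were used, against 78. The share of all protein-coding genes at this setting is not given. With each summit given to its nearest start site alone, 48 genes were left, and within 2 kb RpS15Ab was added, giving 55. These lists set their own lengths, so larger counts with all candidates follow from more regions. Depth is unknown, which limits what can be said of genes without a candidate.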

Other observations

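Small nucleolar RNA genes, many of which lie in introns of ribosomal protein genes and guide the modification of ribosomal RNA, were present in 28 of the 92 genes. Of these hosts 21 had a reproducible summit, against 33 of 64 ribosomal protein genes with no such RNA gene inside and 16.1% of all protein-coding genes. The number of start sites was not held equal in this count. Hosts include RpL14, RpL23A and RpL28 among the strongest genes, with 2, 4 and 5 of these RNA genes, and RpS5a with 14. The hosts were counted after values of the members had been seen, and no test was made. Among genes outside the family, some regions of the related lists were stronger than any at a cytoplasmic ribosomal protein gene. They include those at eIF2Bbeta at rank 3 (signal 1041, at −688 bp) and Lk6 at rank 4 (970, at −972 bp). Others were those at mRpL41 at rank 7 (911), eIF6 at rank 14 (746) and mRpS10 at rank 17 (726).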
